A study of Mus musculus with 10 samples.

Results

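The small leucine-rich proteoglycans of the arterial matrix were examined in the abdominal aorta of KCASP1Tg and WT mice. All probe sets annotated to exactly 1 gene symbol among Dcn, Lum, Bgn, Fmod, Ogn, Prelp, Aspn and Omd were taken, whatever their values, which gave 19 probe sets of 8 genes among 45037 probe sets and 18193 genes on the array. WT mice (n = 4) were C57BL/6 littermates. KCASP1Tg mice (n = 6) carry human caspase-1 under the K14 promoter, which is active in keratinocytes, and develop dermatitis without treatment. The mice of both groups were female and 16 weeks (4 months) old, and the tissue label of both groups reads dechorionated abdominal aorta. The model is thus one of skin inflammation, and the comparison asks how the aorta of a mouse with inflamed skin differs from that of a healthy littermate. The sample titles number each array as a mouse of its own, and the arrays are called mice here. The methods name fewer mice than there are arrays, however, so that arrays of one group may share a mouse, and the p-values would then be too small.

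Small leucine-rich proteoglycans are secreted proteins whose core is a row of leucine-rich repeats, to which most members attach chondroitin, dermatan or keratan sulfate chains. They coat collagen fibrils and set how thick and how evenly spaced the fibrils become. Several members also hold growth factors such as TGF-β in the matrix. In arteries they are made mainly by adventitial fibroblasts and by smooth muscle cells.

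The values are signal intensities on a linear scale, and log2 fold changes are KCASP1Tg minus WT on the log2 scale, with signals below 1 set to 1. Probe sets below a signal of 100 on 7 or more of the 10 arrays were not tested; the rest entered limma. The groups were set apart by S100a8, a neutrophil gene, with signals of 110.4 to 132 in WT and 2705 to 21043 in KCASP1Tg mice. The smooth muscle markers Acta2 (37980.4 ± 2814, SD, n = 4, in WT mice) and Myh11 (10906 ± 623) were bright, as was the fat marker Adipoq (34349 ± 2935). Heart muscle genes were high in WT 4, KCASP1Tg 1 and KCASP1Tg 2, with a summed signal of 10 genes of 79359.5, 38997 and 22689 against 975 to 3978 elsewhere, and liver genes in WT 1 and WT 3, at 99131 and 42130.2 against 309 to 5313. Skeletal muscle genes were high in WT 1 and KCASP1Tg 4, with a sum over 7 genes of 28571 and 24862 against 284 to 1900.0 elsewhere. KCASP1Tg 4 stood apart in other lists as well. The summed signal of 10 lymph node genes was 42322 in that mouse, where the others ran from 702 to 2381 for KCASP1Tg and from 518 to 1292 for WT, and that of 10 smooth muscle genes was 35125 against 74927 to 93858 in all others. The main values are therefore also given without KCASP1Tg 4. In such pieces of tissue fewer cells of a type and less RNA per cell cannot be told apart.

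None of the 8 genes passed the test between the genotypes. Lum, which encodes lumican, had the lowest log2 fold change of the family at -0.93, followed by Ogn at -0.49 and Aspn at -0.37. Fmod had the highest at 0.38. All 19 probe sets met the signal filter, and 0 of 19 were called at an adjusted p under 0.05 by limma, where 0.0686% of the 26242 probe sets tested were called, all of them higher in KCASP1Tg mice. At an unadjusted p under 0.05, 1 of 19 differed, the probe set of Lum, where 7.94% of all probe sets did. It was lower in KCASP1Tg mice, as were 3.42% of all, and 0 were higher, where 4.52% of all were. The exact two-sided Mann-Whitney test, which the study's methods name for comparing 2 groups, was run beside it. It gave an unadjusted p under 0.05 for 3 of 19, the probe set of Lum and both of Ogn, against 7.65% of all, and 0 after adjustment. With 4 mice against 6 its smallest p is 0.00952. That p passes the adjustment only where far more of the 26242 probe sets reach it than did here, so this 0 says nothing of the family. For 0 of 19 were the groups free of overlap, against 0.949% of all probe sets with every KCASP1Tg mouse lower and 1.98% with every one higher. Over the 8 genes, each taken at the probe set with its highest mean signal, 4 log2 fold changes were positive and 4 negative, with a median of -0.04, where the median of all tested probe sets was -0.0018. Over the 19 probe sets, 7 were below 0, as were 50.4% of all tested. Without KCASP1Tg 4 the split stayed 4 and 4, the median was 0.06 and 0 were called.

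**Figure D1:**
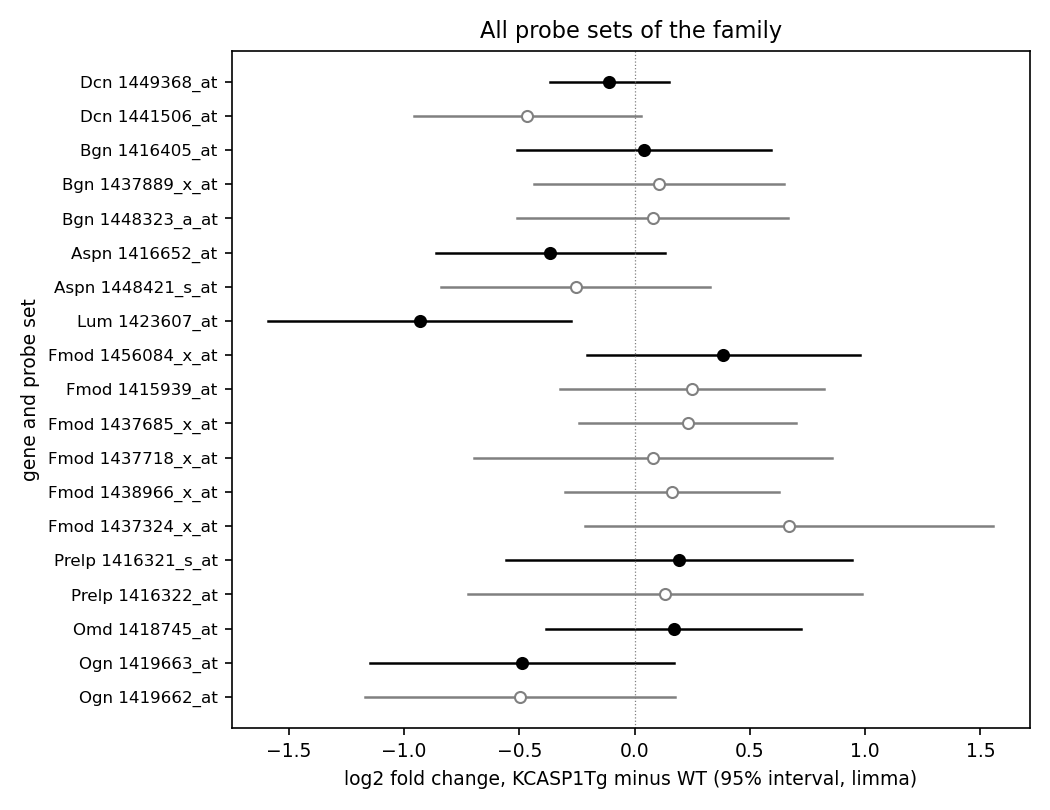
Log2 fold change (KCASP1Tg minus WT, x axis) of each of the 19 probe sets (y axis), with the 95% interval from limma as a line. Filled circles are the probe set with the highest mean signal of a gene and open circles its other probe sets; the interval of Lum, -1.59 to -0.28, is the only one that does not cover 0.

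Decorin, biglycan and asporin form the first class of the family. Decorin, encoded by Dcn, binds collagen I and TGF-β and carries 1 chondroitin or dermatan sulfate chain, and it was the steadiest member. Its signal was 23636, 25146, 24083 and 22584 in WT 1 to WT 4. It was 19304, 20696, 27334, 21499, 24167 and 20447 in KCASP1Tg 1 to KCASP1Tg 6, so 4 KCASP1Tg mice lay below all WT mice and KCASP1Tg 3 above them. The mean was 23862 ± 1062 (SD, n = 4) in WT mice and 22241 ± 2981 (SD, n = 6) in KCASP1Tg mice. On the log2 scale the difference was -0.11 (95% interval -0.37 to 0.15, adjusted p = 0.907 from limma). Leaving out 1 mouse moved it between -0.17 (without KCASP1Tg 3) and -0.07 (without KCASP1Tg 1), and without KCASP1Tg 4 it was -0.10. The highest of the 10 mice was 1.42 times the lowest. A second, dim probe set of Dcn did not follow the bright one. Its signal was 408, 319.8, 314 and 180.3 in WT 1 to WT 4 and ran from 164 to 264, with a median of 213 in KCASP1Tg mice, with a log2 fold change of -0.47 (95% interval -0.96 to 0.03, adjusted p = 0.663 from limma). When 1 mouse was left out it ran from -0.70 without WT 4 (adjusted p = 0.278) to -0.31 without WT 1 (adjusted p = 0.95).

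Biglycan, encoded by Bgn, is built like decorin with a pair of such chains and, when released from the matrix, is a ligand of Toll-like receptors. Its signal was 11575, 13174, 13531 and 17954 in WT 1 to WT 4. It was 16659, 14685, 20086, 7501, 15633 and 14625 in KCASP1Tg 1 to KCASP1Tg 6. The 5 KCASP1Tg mice other than KCASP1Tg 4 lay within the WT range or above it, and KCASP1Tg 4 lay below every other mouse. The genotypes differed by 0.04 on the log2 scale (95% interval -0.51 to 0.59, adjusted p = 0.995 from limma), and without KCASP1Tg 4 it was 0.23, while its sign turned without WT 1 (-0.05) or KCASP1Tg 3 (-0.06). The other probe sets of Bgn gave 0.10 and 0.08, and after centring, the 3 differed from each other by a root mean square of 0.047 to 0.05 on the log2 scale.

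Asporin, encoded by Aspn, lacks the attachment site for the sugar chain, binds collagen and is known as an inhibitor of TGF-β in cartilage. Its signal was 862, 984, 1075 and 1030.2 in WT 1 to WT 4. It was 708, 799, 1299, 542, 869.9 and 574 in KCASP1Tg 1 to KCASP1Tg 6, below all WT mice in KCASP1Tg 1, KCASP1Tg 2, KCASP1Tg 4 and KCASP1Tg 6 and above all in KCASP1Tg 3. The groups overlapped, and the log2 fold change was -0.37 (95% interval -0.86 to 0.13, adjusted p = 0.76 from limma, unadjusted exact Mann-Whitney p = 0.171). Without KCASP1Tg 4 it was -0.27 and without KCASP1Tg 3 -0.52. The other probe set of Aspn gave -0.26, with a 95% interval of -0.84 to 0.33.

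Lumican, fibromodulin, PRELP and osteomodulin form the second class, in which keratan sulfate is the usual chain. Lumican, encoded by Lum, spaces collagen fibrils in the cornea, skin and vessel wall, and its mRNA showed the lowest log2 fold change between the genotypes in the family. The Lum signal was 6383, 7679.8, 9236 and 7583 in WT 1 to WT 4. It was 3189, 5165, 7611, 2432, 4739 and 2879 in KCASP1Tg 1 to KCASP1Tg 6. All KCASP1Tg mice but KCASP1Tg 3 were below every WT mouse, and KCASP1Tg 3 lay within the WT range. The mean was 7721 ± 1169.9 (SD, n = 4) in WT mice and 4336 ± 1931 (SD, n = 6) in KCASP1Tg mice. The difference on the log2 scale was -0.93 (standard error 0.30, 95% interval -1.59 to -0.28), or a 1.91-fold higher WT level. The adjusted p was 0.44 from limma, so Lum was not called, and the unadjusted exact Mann-Whitney p was 0.0381, where 4 mice against 6 can reach 0.00952. Only 0.655% of the probe sets tested had a log2 fold change as low. Without KCASP1Tg 3 the log2 fold change was -1.12 (adjusted p = 0.225 from limma), and without KCASP1Tg 4 it was -0.79 (adjusted p = 0.435). Without the 3 mice with heart muscle transcripts it was -0.95.

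A list of 10 fibroblast markers that holds no member of the family ran parallel to Lum in several KCASP1Tg mice. Its mean log2 value, relative to the 10-mouse mean, was highest in KCASP1Tg 3 (0.75), where Lum was at its KCASP1Tg maximum. It was lowest in KCASP1Tg 4 (-0.62), KCASP1Tg 1 (-0.36) and KCASP1Tg 6 (-0.30), where Lum was lowest too. In KCASP1Tg 5 (0.22) and KCASP1Tg 2 (0.005) the list was above or within the WT range, while Lum was below every WT mouse. In the WT mice it lay between -0.04 and 0.17. All 10 markers were measured, none was at 0, and the summed signal ran from 22678 to 24635 in WT and from 13219 to 35246 in KCASP1Tg mice. Of the 10, 3 had a positive and 7 a negative log2 fold change, with 0 called, and without KCASP1Tg 4 the split was 5 and 5, with a median of -0.0071 in place of -0.14. Dpt, a matrix protein of fibroblasts, had -0.95. Dpep1, a membrane dipeptidase, was the marker in which every KCASP1Tg mouse, from 1183 to 2638, lay above every WT mouse, from 641 to 901. Among all tested probe sets 1.98% were apart in that direction. The part of the fibroblast share in the Lum values was not tested.

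Fibromodulin, encoded by Fmod, binds collagen next to lumican and helps fibrils to mature. The probe set with its highest mean signal was 438, 415, 477 and 676 in WT 1 to WT 4. It was 727, 735, 880.3, 342, 834 and 521 in KCASP1Tg 1 to KCASP1Tg 6. In 4 KCASP1Tg mice it was above every WT mouse, in KCASP1Tg 6 within the WT range and in KCASP1Tg 4 below it. The log2 fold change was 0.38 (95% interval -0.21 to 0.98, adjusted p = 0.8 from limma), without KCASP1Tg 4 it was 0.57 (adjusted p = 0.427), and with array weights, which give KCASP1Tg 4 the least weight, 0.66 (adjusted p = 0.0979). All 6 probe sets of Fmod had a positive log2 fold change, from 0.08 to 0.67. The highest value came from a probe set with a mean signal of 99.3. It reached 100 on 5 arrays, those of WT 4 and KCASP1Tg 1, 2, 3 and 5. Another, at 0.16, reached 100 on 4 arrays, those of WT 4 and KCASP1Tg 2, 3 and 6. Both passed the filter mainly through KCASP1Tg mice, which favours a positive value. The 6 probe sets of Fmod are dim and agreed poorly with each other, with root mean square differences of 0.284 to 0.592 after centring. The names of 5 of them carry the platform's mark for probes that may also bind other transcripts.

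PRELP, encoded by Prelp, anchors basement membranes to collagen through heparan sulfate. Its signal was 1539.5, 1255, 1704 and 2874 in WT 1 to WT 4. It ran from 889 to 3254, with a median of 2172 in KCASP1Tg mice, with KCASP1Tg 4 the lowest of all 10 mice and the WT mice spread over 1255 to 2874. The fitted log2 fold change was 0.19 (95% interval -0.56 to 0.94, adjusted p = 0.959 from limma) and that of its other probe set 0.13. It rested on single mice of both groups, with 0.43 without KCASP1Tg 4, 0.43 without WT 4, 0.05 without KCASP1Tg 2 and 0.03 without WT 2. Omd encodes osteomodulin, a bone matrix protein of acidic character, and has 1 probe set here, which is dim. Its signal was 203, 193, 279 and 279 in WT 1 to WT 4 and ran from 176 to 473, with a median of 251 in KCASP1Tg mice. KCASP1Tg 6 was the highest mouse, at 473, and the groups overlapped. Its log2 fold change was 0.17 (95% interval -0.39 to 0.72, adjusted p = 0.95 from limma), without KCASP1Tg 4 it was 0.29, without WT 2 0.07 and without KCASP1Tg 6 0.0007.

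Osteoglycin, also called mimecan and encoded by Ogn, stands for the third class and is a matrix protein of smooth muscle and fibroblasts. The Ogn signal was 7877, 9762, 9778 and 9717 in WT 1 to WT 4. It was 7558, 7569.7, 6881, 2757, 8353 and 9041 in KCASP1Tg 1 to KCASP1Tg 6, below every WT mouse in KCASP1Tg 1 to KCASP1Tg 4 and within the WT range in KCASP1Tg 5 and KCASP1Tg 6. The mean was 9284 ± 938 (SD, n = 4) in WT mice and 7026 ± 2220.2 (SD, n = 6) in KCASP1Tg mice, and the log2 fold change was -0.49 (95% interval -1.15 to 0.17, adjusted p = 0.755 from limma, unadjusted exact Mann-Whitney p = 0.0381). Without KCASP1Tg 4 it was -0.24 (adjusted p = 0.65). The second probe set of Ogn gave -0.50 and -0.24. Smooth muscle markers were low in the same mouse, with a list mean of -1.25 against -0.18 to 0.39 in the others on the log2 scale relative to the 10-mouse mean, and 10 of 10 of them had a negative log2 fold change, with a median of -0.36 and 0 called. Without KCASP1Tg 4, 8 were negative and 2 positive, with a median of -0.11. Their part in the Ogn value was not tested.

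**Figure D2:**
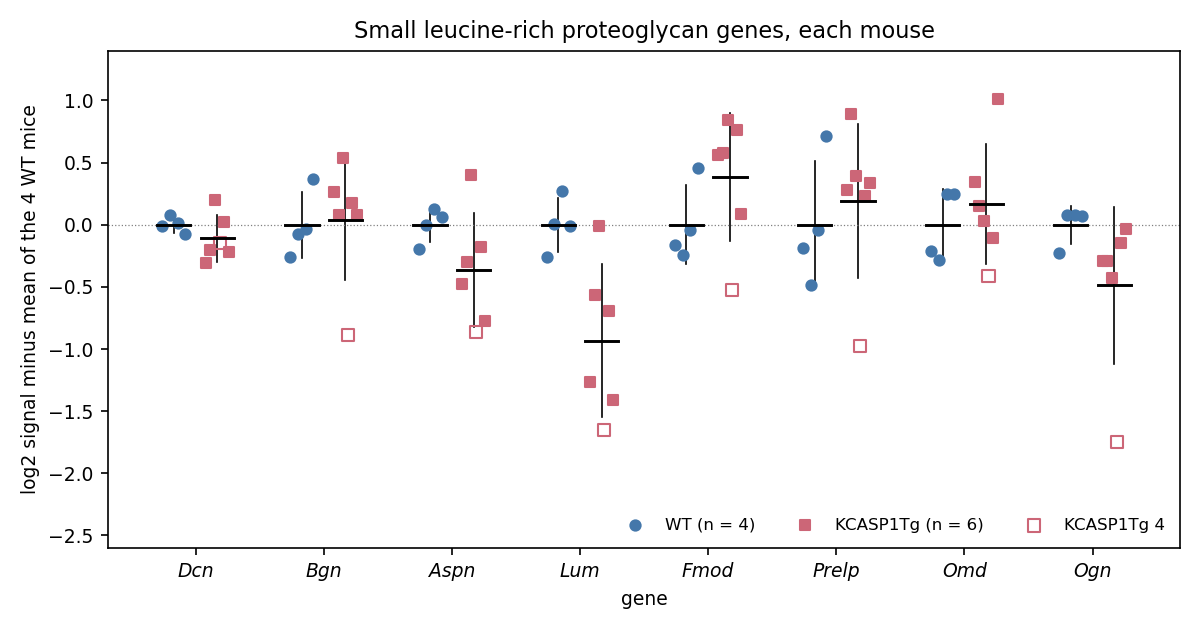
Log2 signal of each gene relative to the mean of the 4 WT mice (y axis, log2 units) in every WT mouse (circles) and KCASP1Tg mouse (squares), at the probe set with the highest mean signal; horizontal lines are group means and vertical lines 1 SD. KCASP1Tg 4 (open squares) is the lowest mouse for 7 of the 8 genes, and for Lum 5 of 6 KCASP1Tg mice lie below all WT mice.

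The genes lie in groups on the genome that the choice of members did not use. In the RefSeq annotation (GRCm38.p6) Dcn and Lum are direct neighbours on chromosome 10, Prelp and Fmod on chromosome 1, and Aspn, Omd and Ogn follow each other on chromosome 13 with Ecm2 before Aspn, while Bgn is on chromosome X. Log2 fold changes of neighbours had the same sign for Dcn (-0.11) and Lum (-0.93) and for Prelp (0.19) and Fmod (0.38), while Omd (0.17) lies between Aspn (-0.37) and Ogn (-0.49). None of these values passed the test. Promoter sequences from RefSeq were matched for 6 of the 8 genes (Aspn, Bgn, Fmod, Ogn, Omd and Prelp). The 250 bases before the start site are shown for the neighbours on chromosome 13, since the log2 fold change of Omd had the other sign, and for Bgn as the one of the 6 with the highest GC content. They are written 5′ to 3′ on the strand of the gene, which is the plus strand for all of them, with the windows chr13:49544193-49544442 for Aspn, chr13:49582212-49582461 for Omd, chr13:49607765-49608014 for Ogn and chrX:73483351-73483600 for Bgn. Capitals mark matches on either strand to any of 4 short motifs. The core of the TATA box was searched for as TATAA. The box named by its own letters, CCAAT, was searched for as such. The GC box, which Sp1 proteins bind, was taken as GGGCGG. The site of the factor AP-1 was taken as TGANTCA, in which N is any base.
Aspn: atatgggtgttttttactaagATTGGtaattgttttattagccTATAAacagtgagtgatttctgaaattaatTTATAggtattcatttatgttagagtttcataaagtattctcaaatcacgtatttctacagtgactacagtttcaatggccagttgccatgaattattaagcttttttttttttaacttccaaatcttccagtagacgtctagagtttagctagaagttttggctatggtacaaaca
Omd: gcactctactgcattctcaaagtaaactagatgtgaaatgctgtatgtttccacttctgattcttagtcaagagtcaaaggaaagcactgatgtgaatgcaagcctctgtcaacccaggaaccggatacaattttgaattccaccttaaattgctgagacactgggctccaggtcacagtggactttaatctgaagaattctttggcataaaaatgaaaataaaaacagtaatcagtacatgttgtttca
Ogn: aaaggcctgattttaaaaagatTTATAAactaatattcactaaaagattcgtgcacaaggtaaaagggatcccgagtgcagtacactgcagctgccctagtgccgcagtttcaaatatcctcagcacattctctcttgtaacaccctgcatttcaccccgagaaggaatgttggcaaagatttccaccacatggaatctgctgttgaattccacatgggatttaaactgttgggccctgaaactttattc
Bgn: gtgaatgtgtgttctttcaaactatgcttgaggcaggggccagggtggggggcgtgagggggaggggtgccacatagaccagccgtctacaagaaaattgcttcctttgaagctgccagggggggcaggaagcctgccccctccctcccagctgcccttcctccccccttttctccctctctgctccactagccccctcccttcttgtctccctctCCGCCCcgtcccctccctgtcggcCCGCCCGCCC
The Aspn window held a TATA box match at 2 places and a CCAAT box match at 1, all between 173 and 229 bases before the start, and the Ogn window held a pair of overlapping TATA box matches, 223 to 228 bases before it. The Omd window held none of the 4 motifs, and neither did that of Fmod, which is not shown. The Bgn window held 3 GC boxes within the last 34 bases, of which the last 2 overlap. Of all 32851 windows of this length, 22.8% held a TATA box match, 33.8% a CCAAT box, 32.7% a GC box and 6.7% an AP-1 site. The GC content was 30.0% for Aspn, 38.4% for Omd, 42.0% for Ogn and 64.4% for Bgn, where the median of all windows was 52.4%.

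For 7 of the 8 genes the SD among KCASP1Tg mice on the log2 scale was larger than the size of the log2 fold change, and Lum was the exception (0.62 against -0.93). Without KCASP1Tg 4 this held for 3 of 8 genes. KCASP1Tg 4 was the lowest mouse for 7 of 8 genes and for 14 of 19 probe sets, and Dcn was the exception, lowest in KCASP1Tg 1. The mean of the 8 genes on the log2 scale, each relative to its 10-mouse mean, was -0.82 in KCASP1Tg 4 and ran from -0.11 (WT 1) to 0.33 (KCASP1Tg 3) in the others. KCASP1Tg 3 was the highest mouse for 4 of the 8 genes, Dcn, Bgn, Fmod and Aspn. Within WT mice the SD on the log2 scale ran from 0.06 (Dcn) to 0.51 (Prelp), and within KCASP1Tg mice from 0.18 (Dcn) to 0.63 (Ogn). It was larger in KCASP1Tg than in WT mice for 8 of 8 genes, and without KCASP1Tg 4 for 4 of 8, since it was then 0.19 for Bgn, 0.27 for Prelp, 0.29 for Fmod and 0.15 for Ogn. The Dcn signal of KCASP1Tg 4, 21499, lay within the range of the other KCASP1Tg mice, while its Ogn signal of 2757 compared with 6881 to 9041 in them.

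**Figure D3:**
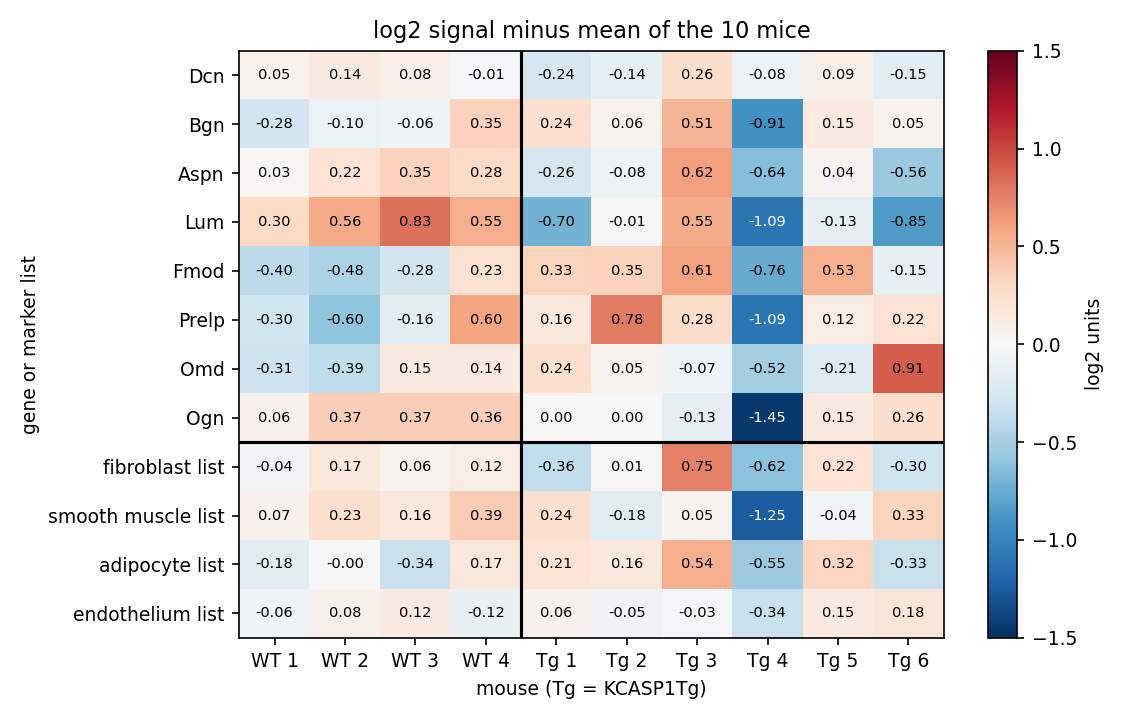
Log2 signal of the 8 genes, and the mean of 4 marker lists, in each mouse (columns) relative to the mean of the 10 mice; colours and printed values are in log2 units. The column of KCASP1Tg 4 is negative in every row, from -0.08 for Dcn to -1.45 for Ogn, and the fibroblast list is highest in KCASP1Tg 3 at 0.75.

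To see which members vary together from mouse to mouse, Pearson's r and Spearman's rho were computed for all 28 pairs over the 10 mice, with two-sided permutation tests and Benjamini-Hochberg adjustment over the 28 pairs. Of these, 24 had a positive r, and 5 passed by r and 2 by rho. The same counts for pairs of other genes were not computed, so these are not shown to be particular to the family. Lum and Aspn were the closest pair (r = 0.93, permutation p = 0.00011, adjusted p = 0.00308; rho = 0.90, permutation p = 0.00079, adjusted p = 0.0221), and they belong to different classes. Bgn and Fmod were next (r = 0.86, permutation p = 0.00023, adjusted p = 0.00322; rho = 0.88, permutation p = 0.00175, adjusted p = 0.0245). The neighbours Fmod and Prelp (r = 0.82, permutation adjusted p = 0.0275; rho = 0.77, adjusted p = 0.0706), Bgn and Prelp (r = 0.82, permutation adjusted p = 0.0328; rho = 0.79, adjusted p = 0.0706) and Aspn and Dcn (r = 0.79, permutation adjusted p = 0.0395; rho = 0.78, adjusted p = 0.0706) passed by r only.

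The relations were computed again over fewer mice. Without the 2 mice farthest from the median of the first gene, r was 0.84 for Aspn and Lum (exact permutation p = 0.0099, adjusted p = 0.139) and 0.77 for Bgn and Fmod (exact permutation p = 0.0249, adjusted p = 0.232), while for Aspn and Dcn it was 0.86 (exact permutation p = 0.00771, adjusted p = 0.139). With 8 mice 0 of 28 pairs passed the adjustment. Without KCASP1Tg 4 alone, r was 0.90, 0.83 and 0.84 for the same 3 pairs, which were the 3 that passed by an exact permutation test. Among the 6 KCASP1Tg mice alone, r was 0.96 for Aspn and Lum and 0.92 for Bgn and Fmod (exact permutation p = 0.00278 and 0.00972), and 0 of 28 pairs passed the adjustment. With 6 mice the exact p moves in coarse steps. Even Aspn and Lum had an adjusted p of 0.0778 there, so this 0 carries little weight. Dcn and Lum, neighbours on chromosome 10, had r = 0.73 (permutation p = 0.019, adjusted p = 0.0889; rho = 0.70, permutation p = 0.0303, adjusted p = 0.142). Bgn and Ogn differed between the coefficients: r was 0.70 over all mice (permutation p = 0.0819) where rho was -0.09 (permutation p = 0.813), and without KCASP1Tg 4 r was -0.35.

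**Figure D4:**
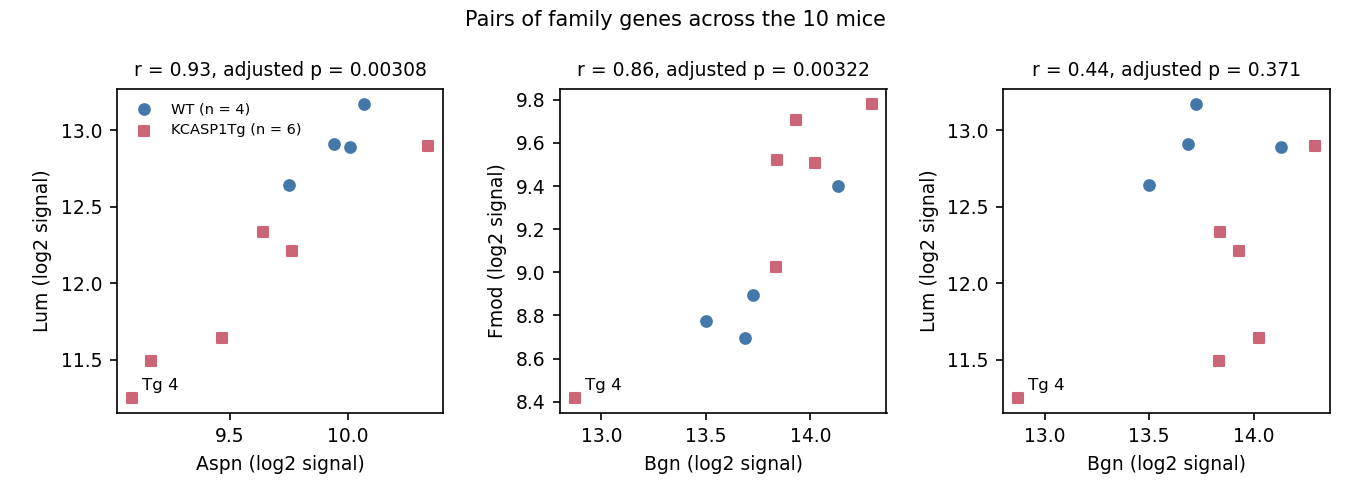
Log2 signals of 3 pairs of genes in the 10 mice (WT circles, KCASP1Tg squares), with Pearson's r and its permutation p adjusted over 28 pairs above each panel. Lum follows Aspn (r = 0.93) and Fmod follows Bgn (r = 0.86), while Lum and Bgn (r = 0.44) scatter, with KCASP1Tg 4 at the low corner of all 3 panels.

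Among the relatives of the 8 genes, 1 of 4 tested, Ecm2, set the genotypes apart without overlap. Every KCASP1Tg mouse was lower for it, as for 0.949% of all tested probe sets. Of 10 further family genes 8 were on the array and 4 were tested, with 1 positive and 3 negative log2 fold changes (2 and 2 without KCASP1Tg 4) and 0 called. Ecm2, the neighbour of Aspn and a collagen-associated protein with the same repeats, averaged 820.4 ± 132 (SD, n = 4) in WT mice and 506 ± 114 (SD, n = 6) in KCASP1Tg mice. Every KCASP1Tg mouse, from 287 to 591, lay below every WT mouse, from 648 to 941. This is a log2 fold change of -0.72, which did not pass (adjusted p = 0.376 from limma). Podn, which encodes podocan of the vessel wall, had 0.28 (adjusted p = 0.84), and Kera, Epyc, Nyx and Chad were below the filter.

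None of the tested enzymes that build the sugar chains was called, which does not show that they were level. Of 22 chondroitin and dermatan sulfate genes 18 were tested, with 8 positive and 10 negative log2 fold changes, a median of -0.02 and 0 called. Without KCASP1Tg 4 the split was 13 and 5, with a median of 0.04. The smallest p among them was that of Chst15, a sulfotransferase, with 732 ± 67.4 (SD, n = 4) in WT mice and 968 ± 191 (SD, n = 6) in KCASP1Tg mice and a log2 fold change of 0.38 (adjusted p = 0.56 from limma). Fam20b, the kinase of the linker sugar, had -0.16, Chpf2, a chain polymerising factor, 0.21, and the sulfotransferase Chst12 -0.25. Of 6 keratan sulfate genes 5 were tested and 0 called, with a median log2 fold change of 0.15. Without KCASP1Tg 4, 4 were tested, with a median of 0.04. The log2 fold change was -0.29 for the sulfotransferase Chst1, 0.38 for Chst2, 0.15 for the chain-extending enzyme B3gnt7 and 0.16 for the galactosyltransferase B4galt4. Near the filter lay Chst2, at 30.0 to 115 in WT and 36.2 to 146 in KCASP1Tg mice. So did B3gnt7, at 73.7 to 130 and 83.0 to 134.

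Of 16 proteoglycans outside the family 15 were tested, with 7 positive and 8 negative log2 fold changes, a median of -0.07 and 0 called. Without KCASP1Tg 4, 14 were tested, with 8 positive and 6 negative, a median of 0.03 and 0 called. Of the 15 tested over all mice, 4 were higher at an unadjusted p under 0.05, where 4.52% of all probe sets were. These were Esm1, a proteoglycan of activated endothelium, at 1.51, Srgn, the serglycin of leukocyte granules, at 0.62, Vcan, the large matrix proteoglycan versican, at 0.76, and Prg4, the lubricin of joint and serosal surfaces, at 0.96 (adjusted p = 0.263, 0.44, 0.5 and 0.608 from limma). The Esm1 signal was low, at 32.7 to 59.9 in WT and 82.7 to 366 in KCASP1Tg mice. All WT values were below the signal of the filter. Esm1 was thus tested through KCASP1Tg mice alone, which favours a positive value. Without KCASP1Tg 4 it no longer met the filter. Of the 14 genes then tested, 3 were higher at an unadjusted p under 0.05 from limma. For Esm1 and Srgn every KCASP1Tg mouse was above every WT mouse, as for 1.98% of all tested probe sets. Macrophage markers lay on the same side, with 8 of 8 log2 fold changes positive. Their summed signal was 13026 to 19758 in WT and 17914 to 53992 in KCASP1Tg mice, with none at 0. The 53992 was that of KCASP1Tg 4, and the other KCASP1Tg mice reached at most 35777. The part of these markers in the proteoglycan values was not tested.

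Of 12 fibrillar and fibril-associated collagen genes, 11 had a negative log2 fold change, with a median of -0.64 against -0.0018 for all probe sets. At an unadjusted p under 0.05, 7 of the 12 were lower, where 3.42% of all probe sets were. For 4 of them every KCASP1Tg mouse was below every WT mouse, where this held for 0.949% of all. Col3a1, the chain of collagen III, averaged 18814 ± 1353 (SD, n = 4) in WT mice and 9702 ± 4079.8 (SD, n = 6) in KCASP1Tg mice, a difference on the log2 scale of -1.07 (adjusted p = 0.367 from limma). The chains of collagen VI, which biglycan and decorin bind, had -0.64 for Col6a1, -0.72 for Col6a2 and -0.87 for Col6a3, and Col5a1, a chain that limits fibril width, had -0.63. Those without overlap were Col3a1, Col5a1, Col6a1 and Col6a3. Without KCASP1Tg 4 the median of the list was -0.52 and 0 were called. The summed signal of the list ran from 56616 to 62254 in WT mice. In KCASP1Tg mice it was 59522 in KCASP1Tg 3, within the WT range and where the fibroblast list was highest, and 19754 in KCASP1Tg 4, where the fibroblast and smooth muscle lists were lowest. In the other 4 it ran from 32805 to 42219. The part of these markers in the collagen values was not tested.

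Of 6 collagen cross-linking genes tested, Plod2, a lysyl hydroxylase, had the smallest p. Its means were 826 ± 113 (SD, n = 4) in WT mice and 458 ± 121 (SD, n = 6) in KCASP1Tg mice. The difference on the log2 scale was -0.89 (adjusted p = 0.223 from limma), with no overlap between the groups. Every KCASP1Tg mouse was lower for 1 of these 6 genes and for 1 of the 8 proteases below, against 0.949% of all tested probe sets. The lysyl oxidases Lox and Loxl1 had -0.15 and -0.27 and the hydroxylase Plod1 0.09. Of the 6 cross-linking genes 1 was positive and 5 negative, with a median of -0.09 and 0 called. Without KCASP1Tg 4 the split turned to 4 positive and 2 negative, with a median of 0.009. Among 8 proteases and their helpers that were tested 2 were positive and 6 negative, with 0 called. Adamts5, an aggrecan-cleaving protease, had -0.35 without overlap (adjusted p = 0.452 from limma), Mmp2, a gelatinase that cleaves decorin, -0.57, Pcolce, an enhancer of procollagen processing, -0.41, and Mmp3, stromelysin, 0.68. Of 14 ligands and receptors of the family, 8 were positive and 6 negative, with a median of 0.03. Cd14, the co-receptor through which biglycan acts on Toll-like receptors, averaged 615 ± 97.0 (SD, n = 4) in WT mice and 1103 ± 413 (SD, n = 6) in KCASP1Tg mice, a difference on the log2 scale of 0.76 (adjusted p = 0.531 from limma). P2rx7, an ATP receptor, had -0.34, and the TGF-β genes Tgfb1 and Tgfb3 had 0.38 and -0.38.

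The genes outside the family whose profile over the 10 mice was most like the mean of the 8 genes were sought by the root mean square difference of log2 values after centring each gene on its 10-mouse mean. They were Ikbip (0.078), Fcor (0.081), Aspa (0.082), Fstl1 (0.086), a follistatin-like secreted glycoprotein, and Ift81 (0.093). Their log2 fold changes between the genotypes ran from -0.20 to -0.10. Likeness over all 10 mice takes in the genotype difference, so log2 fold changes near that of the mean follow from the choice.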

How the data were processed

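GeneChip mouse arrays, 1 per sample, measured total RNA from the abdominal aorta (4 WT, 6 KCASP1Tg). With MAS5, which corrects background and mismatch signal, the authors derived 1 signal intensity for each probe set and set the trimmed mean of every array to 500. The deposited intensity values are linear, and the mean after trimming 2% at each end was 500.0 on every array. Medians ran from 128.3 to 155.7, and 54.9% to 58.3% of probe sets reached a signal of 100. The methods name fewer mice than the 10 arrays, all of which were used, and no scan batch is given in the sources used here.

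The 64 control probe sets were left out of 45101. Of the other 45037, 34945 have 1 gene symbol, 932 several and 9160 none in the platform annotation used here. Of the 34945, 34741 were matched by gene identifier to the RefSeq table. A floor of 1 was set before log2 transformation, and the 26242 probe sets that reached a signal of 100 on 4 or more arrays entered limma 3.58.1 (R 4.3.3), genotype as the only term, two-sided, Benjamini-Hochberg adjusted over all of them, called at an adjusted p under 0.05. A gene with several probe sets is represented by the one with the highest mean signal. Relations between genes were tested with 100000 permutations, or exactly under 10 mice (Python 3.11.15, scipy 1.17.1), and figures drawn with matplotlib 3.10.9. The fit was tested on simulated data. The genes named are the 8 members, up to 4 of each pathway list with the smallest p, and the 5 with the most alike profile. Markers and Col5a1 were named after their values were seen. The members and lists were chosen with earlier results of these data known. Alternatives were a floor of 16, a pseudocount of 50, no filter or one at 200, array weights, quantile or median scaling, a trend on intensity, an adjusted p under 0.01, the exact two-sided Mann-Whitney test, arrays left out, a block by replicate number and the mean over a gene's probe sets. Promoter windows and gene order came from RefSeq (GRCm38.p6).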

Additional observations from a re-analysis of the deposited data

Results flagged for a closer look

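Dixon's gap test at 95% was applied to the log2 signals of the 19 probe sets in each genotype, 38 groups in all. Chance marks about 1 in 20 of such groups, and the test marked 10 values. The signals below are printed on the linear scale, on which a low value stands out less than on the log2 scale tested. Of these, 7 came from KCASP1Tg 4 as the lowest KCASP1Tg mouse. The Bgn signals there were 7501 against 14625 to 20086 and 5589.9 against 10998 to 16428 in the other KCASP1Tg mice at a pair of probe sets. Those of Ogn were 2757 against 6881 to 9041 and 2016 against 5081 to 6820.2, and those of Prelp 889 against 2058 to 3254 and 203 against 529.7 to 838. A dim probe set of Fmod gave 59.0 against 154 to 248. Since probe sets of 1 gene measure the same RNA and the 7 values share 1 array, they are not independent. This mouse also had the high lymph node and low smooth muscle signals given above, and their part was not tested.

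The other 3 values came from WT mice. Ogn was 7877 against 9717 to 9778 in WT 1, on the low side. Dim probe sets of Fmod were high in WT 3, at 192 against 133 to 140.4, and in WT 4, at 149 against 79.1 to 86.3 in the other WT mice. No value of Dcn, Lum, Aspn or Omd was marked.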

How the results depend on the processing

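The count of family probe sets called was 0 under all 23 alternatives run, with adjusted p of the 8 genes no lower than 0.093 (Lum) and 0.0979 (Fmod), both with array weights. The exact Mann-Whitney test could call no probe set after adjustment, given its smallest p and how few probe sets reached it, so its 0 adds no evidence. The log2 fold change of Lum ran from -1.12 to -0.79 over all settings, and those of Dcn, Ogn, Aspn, Fmod, Prelp and Omd also kept their direction. That of Bgn reversed under quantile normalization (-0.0196), with the replicate number as a block (-0.0018), and in the leave-one-out fits without WT 1, KCASP1Tg 1 or KCASP1Tg 3, where the range over all arrays was -0.0586 to 0.23 (-0.05, -0.0046 and -0.0586). The median of the 8 genes moved by less than the spread between mice in all 22 alternatives. Over the whole array, 18 probe sets were called by limma, 267 with array weights, 0 with the replicate block, 2 without WT 4, KCASP1Tg 1 and KCASP1Tg 2, 0 by the exact Mann-Whitney test, 10 at an adjusted p under 0.01, and 10 to 69 when 1 array was left out (10 without KCASP1Tg 1, 41 without KCASP1Tg 6, 69 without KCASP1Tg 4). Of the 28 pairs of genes, 5 passed over all mice, 3 after subtracting each genotype mean, 2 after quantile normalization, 0 without the 2 mice farthest from the median and 3 without KCASP1Tg 4, a choice made after seeing the data, as were the list counts and spreads without that mouse. The causes were not tested. The replicate numbers do not pair the mice (same-numbered mice had correlations of -0.435 to 0.108 in their deviations, and 0 of 4 WT mice correlated best with their own number), so a call lost with this block says nothing of an effect. Precision is limited by how many arrays there are, and the dim probe sets of Fmod and Omd lie nearest to the background.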

Other observations

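The genes nearest to Lum and to Ogn over the 10 mice differed from each other. These were looked for after the values had been seen. The likeness takes in the genotype difference, so log2 fold changes near those of Lum and Ogn follow from the choice. By the same root mean square difference of centred log2 values, those nearest to Lum were Col14a1 (0.147), a fibril-associated collagen, Dpt (0.158), which encodes dermatopontin and is known to bind decorin, and Ctsk (0.205), the collagen-cleaving cathepsin K, followed by Dct (0.233) and Fndc1 (0.241). Their log2 fold changes ran from -0.95 to -0.52, and none passed the test (adjusted p from limma 0.206 to 0.75). Those nearest to Ogn were Gpc6 (0.126), a glypican, Runx1t1 (0.13), Cacna2d1 (0.157), a calcium channel subunit, and Synpo2 (0.164) and Pgm5 (0.169), which are muscle proteins, with log2 fold changes from -0.53 to -0.31 (adjusted p 0.735 to 0.867).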
